A study of Mus musculus with 6 samples.

Results

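The constitutive proteasome genes of mouse bone marrow-derived macrophages were compared between cells lacking Cd74 and Control cells. Members were the genes whose symbol names a standard Psm subunit or assembly factor, which gave 41 of the 17217 rows of the expression table. Of these, 14 encode the 20S core particle, 17 the 19S regulatory particle, and 10 encode assembly chaperones, activators or the core-binding protein PI31. Immunoproteasome genes were kept out by the choice of symbols, and all 41 members passed the filter of a mean of 1 TPM (a level scaled for gene length and for the total of the library).

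RNA was sequenced from 3 Cd74 knockout and 3 Control libraries, labelled CD74-/- and CD74+/+ in the study's text. Femoral marrow cells of mice aged 8 weeks were cultured in M-CSF at 30 ng/mL, the growth factor that makes marrow cells into macrophages. Cells of both groups were then given 100 ng/mL lipopolysaccharide (LPS), a bacterial wall component, for 24 h, so no untreated cells were available for comparison. The sources used here do not give the strain, the design of the deleted allele or whether replicates came from separate animals, so p-values may measure technical spread only. The protocol text speaks of wild-type mice for every library, and the genotype was taken from the titles. The labels put all knockout libraries in batch 2 and all Control libraries in batch 1, so the effects of batch and of genotype cannot be told apart.

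The proteasome is the barrel-shaped protease that degrades ubiquitin-tagged proteins. Its 20S core stacks rings of alpha subunits, which gate the entrance, on rings of beta subunits, of which Psmb5, Psmb6 and Psmb7 encode the ones that cut peptide bonds. The 19S particle caps the core: its base unfolds the substrate with a ring of ATPases, and its lid, through the protease encoded by Psmd14, removes the ubiquitin chain. In macrophages exposed to inflammatory signals, inducible subunits partly replace the catalytic ones, and the peptides made feed MHC class I presentation. Each core or cap holds the same number of copies of every subunit, and the transcription factor NRF1 (gene Nfe2l1) is known to drive most subunit genes together when proteasome activity is short.

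Promoter stretches of 4 members are shown because these genes carry the contrasts described below. Psmb5 and Psmb6 encode catalytic subunits whose fold changes had opposite signs, with only that of Psmb6 called. Psmd1 and Psmd8 had the largest rise and the largest fall. Each stretch is the 120 bases just before the RefSeq start site in build GRCm38.p6, read along the gene's strand, and capitals mark a match to the motif TGACNNNGC, the core of the antioxidant response element bound by NRF1 and its relatives.
Psmb5, chr14:54617996-54618115, minus strand: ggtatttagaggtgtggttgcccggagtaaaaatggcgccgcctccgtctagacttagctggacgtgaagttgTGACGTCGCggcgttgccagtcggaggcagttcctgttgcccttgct
Psmb6, chr11:70525237-70525356, plus strand: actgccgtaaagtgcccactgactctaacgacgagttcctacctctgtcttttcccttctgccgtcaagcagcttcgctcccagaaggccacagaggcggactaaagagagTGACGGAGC
Psmd1, chr1:86064499-86064618, plus strand: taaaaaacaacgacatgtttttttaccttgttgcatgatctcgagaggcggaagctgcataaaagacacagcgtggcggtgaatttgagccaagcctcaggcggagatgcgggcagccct
Psmd8, chr7:29180674-29180793, minus strand: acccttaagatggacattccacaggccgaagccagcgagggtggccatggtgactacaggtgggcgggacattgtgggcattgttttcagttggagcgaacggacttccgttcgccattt

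Promoter windows of 300 bases, running from 250 bases before the start site to 50 after it, were given for 34 of the 41 members. The motif TGACNNNGC, searched on both strands, was present for 6 of the 34 (17.6%), against 14.0% of 27025 genes with a window. The 6 were Psmb5, Psmb6, Psmc6, Psmd9, Psmd12 and Psme4, which include 1 called fall, 1 called rise and 4 genes that were not called. The motif CCAAT, to which the factor NF-Y binds, was present for 12 of the 34 (35.3%), against 41.1% of all genes with a window. A match is a description of letters only. Neither motif contains the other, and the windows of Psmd1 and Psmd8 held neither. Windows were not given for Psmb1, Psmb2, Psmb7, Psmc3, Psmd3, Psmd7 and Psmg2.

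Libraries held 47769004 to 54601333 reads in knockout and 33226549 to 48048379 in Control, as recovered from the TPM steps of rows that came out whole. All 41 members came out as whole reads in all 6 libraries within 0.02 read, and the lowest count was 194 reads, for Psmg3. Cd74 stood at 65.3, 64.6 and 63.1 TPM in knockout replicates 1 to 3, against 632, 593 and 594 TPM in Control replicates 1 to 3. Its direction goes with the labels in every library, but the Cd74 row was not whole reads at the gene's length, so the size of that difference is uncertain. Of 10 macrophage markers 6 were analysed, with a summed level of 10846 to 12269 TPM in knockout and 7699.9 to 8341 TPM in Control. Most of that sum was Lyz2, at 8658 ± 778 TPM in knockout and 5373 ± 355 TPM in Control (SD, n = 3 each). Lyz2 (log2 fold change 0.69), Csf1r (0.76) and Itgam (0.30) were called higher, the F4/80 gene Adgre1 (-0.56) was called lower, and Cd68 and Fcgr1 were not called. Summed levels were 23.8 to 29.3 TPM in knockout and 17.6 to 18.1 TPM in Control over 3 of 8 neutrophil markers, and 1.57 to 2.41 TPM in knockout and 1.11 to 2.31 TPM in Control over 3 of 5 dendritic cell markers. The neutrophil markers moved in opposite directions, with S100a8 at 15.8 to 22.5 TPM in knockout and 4.20 to 5.71 TPM in Control (called higher), and Csf3r at 7.39 ± 0.605 TPM in knockout and 11.9 ± 1.43 TPM in Control (SD, n = 3 each, called lower). The B cell, erythroid and stromal markers analysed (1, 2 and 2 of 4 each) summed to at most 0.651 TPM in knockout and 0.625 TPM in Control, and the listed T and NK cell and mast cell markers were not analysed here. The part of these shifts, and of depth, in the proteasome results was not tested. In bulk RNA, a change in cell makeup and a change in RNA per cell cannot be told apart.

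The proteasome genes as a group moved little between genotypes. With limma on log2(TPM + 1), 10 of the 41 (24.4%) were called higher in knockout and 4 (9.76%) lower at an adjusted p under 0.05, against 18.5% and 10.1% of all 13034 tested rows, so the counts lay near the background. In either direction, 14 members were called, against 28.5% of tested rows. The 10 rises and 4 falls became 3 rises and 5 falls under median-of-ratios scaling, and the same numbers under upper-quartile scaling. All tested rows had 64.7% of their calls in the higher direction as deposited, 51.5% under median-of-ratios scaling and 48.2% under upper-quartile scaling. The median log2 fold change of the members was 0.08, and that of all tested rows was 0.04. Under median-of-ratios scaling they were 0.04 and 0.00, and under upper-quartile scaling 0.03 and -0.01. Genes close to 0, among them Psma7, Psmb3, Psmc1 and Psmg2, change sign under these scalings.

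The members' fold changes were also small. Their median size, regardless of sign, was 0.14 on the log2 scale and the largest was 0.38, with an SD across genes of 0.15. The 9319 tested rows in the same range of mean TPM had a median size of 0.17, a largest size of 3.22 and an SD across genes of 0.32. That range reached down to Psmg3, at a mean of 7.58 TPM in knockout and 6.11 TPM in Control. Core and 19S genes lay between 92.7 and 713 TPM, so these rows were not matched to them in level. Summed over the 41 genes, the transcripts took 0.933%, 0.946% and 0.980% of all TPM in knockout replicates 1 to 3, against 0.902%, 0.927% and 0.926% in Control replicates 1 to 3. Every knockout library lay above every Control library in that share, by a margin smaller than the range within the knockout group. The groups overlapped in the summed TPM itself. It was 9253, 9392 and 9723 TPM in knockout replicates 1 to 3, against 9009.6, 9254 and 9251 TPM in Control replicates 1 to 3. The total TPM that the share divides by was 991721 to 993362 in knockout and 998350 to 998572 in Control. All 3 knockout libraries stood above all 3 Control libraries for 21 members (51.2%), a state reached by 30.2% of all tested rows. They stood below all 3 Control libraries for 8 members (19.5%), a state reached by 19.8% of tested rows.

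**Figure D1:**
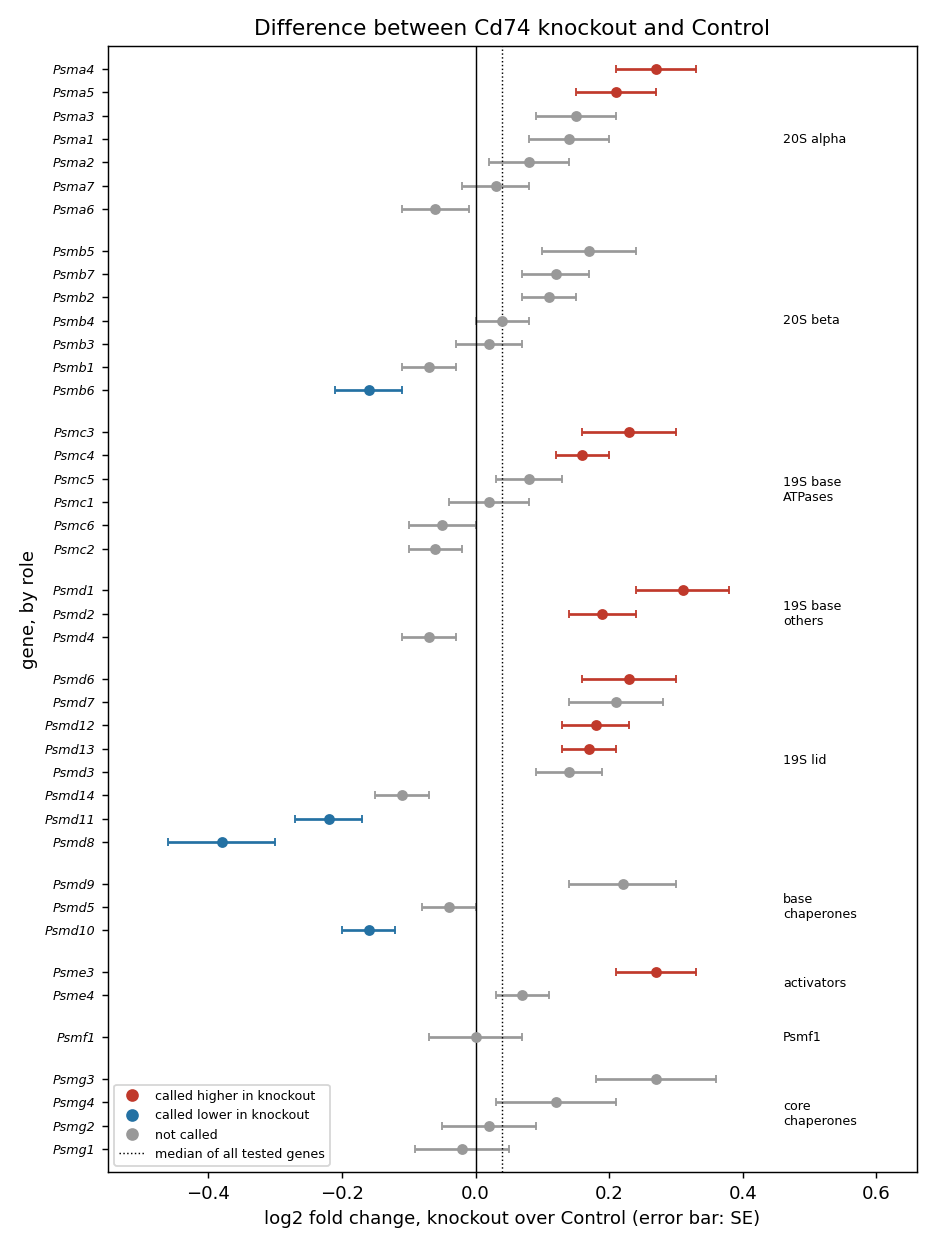
Log2 fold change, knockout over Control, for each of the 41 genes, grouped by role, with error bars for the SE and a dotted line at the median of all tested genes (0.04). Red points were called higher, blue points lower and grey points were not called. Values ran between -0.38 (Psmd8) and 0.31 (Psmd1), and genes of both signs are seen in most roles.

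Within the alpha ring, 2 of 7 genes rose and 0 fell, leaving 5 without a call, and the median log2 fold change was 0.14. The shares over all tested rows were 18.5% called higher and 10.1% called lower. Psma4 was at 240.1, 254 and 272 TPM in knockout replicates 1 to 3, against 202, 218 and 212 TPM in Control replicates 1 to 3. The groups did not overlap (log2 fold change 0.27, SE 0.06, limma adjusted p = 0.0152). Psma5 was at 610.1, 613 and 689.6 TPM in knockout, against 525, 557 and 566 TPM in Control, with a log2 fold change of 0.21 (SE 0.06, limma adjusted p = 0.0408). Its highest value was knockout replicate 3, and its lowest Control replicate 1. A pseudogene row named for Psma5, Psma5-ps, was at 4.12 ± 0.204 TPM in knockout and 3.54 ± 1.49 TPM in Control (SD, n = 3 each). Reads of Psma5 may have been shared with it. The call of Psma4 was lost without Control replicate 1 or 3 (adjusted p up to 0.0529), and Psma5 lost it in 5 of the 6 fits that left out 1 library, all but that without knockout replicate 3 (up to 0.119), and under both scalings.

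The other alpha genes lay between -0.06 for Psma6 and 0.15 for Psma3. Psma1 and Psma3 had no overlap between groups, with means of 253 ± 7.80 and 164 ± 4.80 TPM in knockout, against 229.6 ± 13.6 and 148 ± 11.1 TPM in Control (SD, n = 3 each), yet neither was called (limma adjusted p = 0.102 and 0.108). Psma7, whose protein has a close germ cell relative encoded by Psma8, stood at 199 ± 8.65 TPM in knockout and 194 ± 4.40 TPM in Control. Psma8 itself, which the symbol rule left out, was at 19.5 ± 0.132 TPM in knockout and 17.0 ± 0.775 TPM in Control (0.19, limma adjusted p = 0.0436), and reads of such relatives may have been shared. In level, the ring was uneven in both genotypes: the highest gene, Psma6, exceeded the lowest by 4.10-fold in knockout (661 TPM against 161 TPM of Psma2) and by 4.66-fold in Control (688 TPM against 148 TPM of Psma3).

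In the beta ring, 1 of 7 genes fell and 0 rose, leaving 6 without a call, and the median was 0.04. Falls were called for 10.1% of all tested rows and rises for 18.5%. The gene that fell was Psmb6, which encodes the caspase-like catalytic subunit, at 481, 470.4 and 483 TPM in knockout replicates 1 to 3, against 559, 526 and 519 TPM in Control replicates 1 to 3. All knockout values lay below all Control values (log2 fold change -0.16, SE 0.05, limma adjusted p = 0.0367). Psmb6 kept its call under both scalings, but lost it in all fits that left out 1 library except that without knockout replicate 3 (adjusted p up to 0.119).

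The other catalytic genes leaned the opposite way without being called. Psmb5, which encodes the chymotrypsin-like subunit, was at 173, 184 and 198 TPM in knockout, against 173, 151 and 169 TPM in Control (log2 fold change 0.17, SE 0.07, limma adjusted p = 0.11). Knockout replicate 1 and Control replicate 1 were nearly equal. Psmb7, which encodes the trypsin-like subunit, was at 152, 156 and 164 TPM in knockout, against 142, 145 and 148 TPM in Control (0.12, SE 0.05, adjusted p = 0.101), with no overlap. As a ratio of TPM + 1 within each library, which a scaling of the library barely alters at these levels, the level of Psmb6 over Psmb5 was 1.47, 1.35 and 1.28 on the log2 scale in knockout replicates 1 to 3, against 1.69, 1.79 and 1.62 in Control replicates 1 to 3. The groups did not overlap in this ratio, which was chosen after the values were seen. GENCODE M21 lists pseudogenes named for Psmb5, Psmb6 and Psmb7, so their reads may have been shared with copies.

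Of the noncatalytic beta genes, 0 were called. Psmb1 and Psmb3, with log2 fold changes of -0.07 and 0.02, had overlapping groups, at 135 ± 2.11 and 238 ± 8.90 TPM in knockout, against 142 ± 4.52 and 235 ± 4.03 TPM in Control. Psmb2 was at 367 ± 10.3 TPM in knockout and 341 ± 4.94 TPM in Control (0.11, adjusted p = 0.0937), and Psmb4, the highest beta gene in knockout, at 547 ± 21.0 TPM in knockout and 531 ± 1.31 TPM in Control (SD, n = 3 each). Across the ring, levels spread 4.04-fold in knockout and 3.77-fold in Control, with Psmb1 lowest in both.

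Within the 19S base, 4 of 9 genes rose and 0 fell, against 18.5% and 10.1% of all tested rows. Under both scalings only Psmd1 of these 4 was still called. Psmd1, which encodes the large scaffold Rpn2, was at 135, 137 and 151 TPM in knockout replicates 1 to 3, against 106, 119 and 116 TPM in Control replicates 1 to 3. The groups were well apart, and the log2 fold change of 0.31 (SE 0.07, limma adjusted p = 0.014) was the largest rise among the members. Psmd1 was called higher in each of the 15 settings of the test, with adjusted p at most 0.045 when 1 library was left out. Exons of Psmd1 overlap those of other annotated genes, by 301 bp on the same strand (Gm21972) and by 252 bp on the opposite strand (Htr2b), and strand use in counting was not given.

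Psmd2, the partner scaffold gene (Rpn1), was at 480.4, 483 and 516 TPM in knockout, against 421, 449 and 423 TPM in Control (log2 fold change 0.19, SE 0.05, limma adjusted p = 0.027). Groups did not overlap, and the call was lost under both scalings and without knockout replicate 2 or Control replicate 1 or 3 (adjusted p up to 0.0952). Psmd4, the ubiquitin receptor gene Rpn10, did not share the direction: it was at 279 ± 5.51 TPM in knockout and 293 ± 4.73 TPM in Control (SD, n = 3 each), with all knockout values lower but no call (-0.07, adjusted p = 0.227).

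Of the 6 ATPase genes, Psmc3 and Psmc4 rose, while 18.5% of all tested rows were called higher. Psmc3 was at 209.9, 222 and 249 TPM in knockout, against 187, 193 and 199.6 TPM in Control (log2 fold change 0.23, SE 0.07, limma adjusted p = 0.0464), and Psmc4 averaged 215 ± 5.29 TPM in knockout and 192 ± 4.57 TPM in Control (0.16, SE 0.04, adjusted p = 0.0343). Neither gene's groups overlapped. Both calls were lost under both scalings and in 5 of the 6 fits that left out 1 library (adjusted p up to 0.130 and 0.108), all but that without knockout replicate 1 for Psmc3 and that without knockout replicate 3 for Psmc4. The remaining ATPase genes, Psmc1, Psmc2, Psmc5 and Psmc6, lay between -0.06 and 0.08 and were not called. Psmc1 was the highest base gene, at 534 ± 25.3 TPM in knockout and 527 ± 26.3 TPM in Control (SD, n = 3 each), and its groups overlapped.

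**Figure D2:**
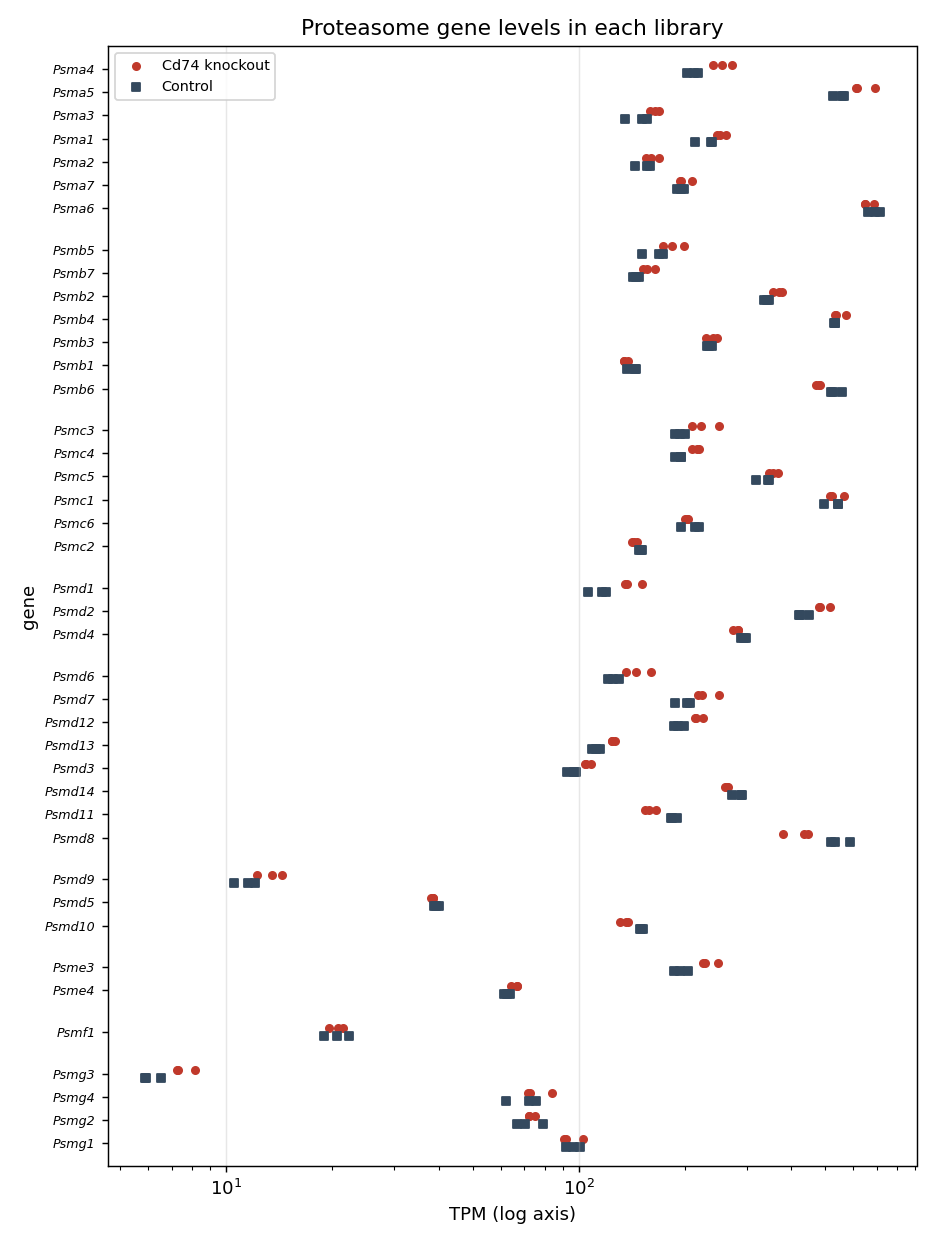
TPM of each gene in each library on a log axis, with knockout libraries as red circles above Control libraries as dark squares, ordered by role and then by fold change. Subunit genes of the core and the 19S particle sit between about 93 and 713 TPM in both groups, while Psmg3, Psmd9 and Psmf1 lie far below.

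The 19S lid split in both directions. Of its 8 genes, 3 rose and 2 fell, and the groups did not overlap for any of the 8: knockout was above Control for 5 and below it for 3. Of all tested rows, 28.5% were called in either direction, 30.2% had all knockout values above Control, and 19.8% had all of them below. Under both scalings the lid had 0 genes called higher and 3 called lower. Shares over all tested rows were 14.0% higher and 13.2% lower under median-of-ratios scaling, and 13.3% and 14.3% under upper-quartile scaling. The SD of fold changes across lid genes was 0.23, against 0.12 across the core genes and 0.14 across base genes.

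Psmd8, which encodes the lid subunit Rpn12, was at 447, 436 and 378 TPM in knockout replicates 1 to 3, against 587, 531 and 518 TPM in Control replicates 1 to 3. Its groups were widely separated, with knockout replicate 3 lowest and Control replicate 1 highest. The log2 fold change of -0.38 (SE 0.08, limma adjusted p = 0.0141) was the largest fall among the members and was called in each of the 15 settings, with adjusted p at most 0.0481 when 1 library was left out. Relative to the mean of the other 7 lid genes in the same library, Psmd8 stood at 1.42, 1.38 and 1.11 on the log2 scale in knockout replicates 1 to 3, against 1.90, 1.70 and 1.68 in Control replicates 1 to 3. This within-library measure, taken on log2(TPM + 1), barely depends on the scaling of a library at these levels, and was chosen after the values were seen.

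Psmd11, the lid scaffold gene Rpn6, was at 165, 154 and 158 TPM in knockout, against 190.0, 184 and 183 TPM in Control (log2 fold change -0.22, SE 0.05, limma adjusted p = 0.0129). All knockout values were below all Control values, and the call was lost only without knockout replicate 2 (adjusted p = 0.0527). Psmd14, the lid deubiquitinase gene Rpn11, was at 259.7, 264 and 263 TPM in knockout, against 272, 289.9 and 289 TPM in Control. Its groups did not overlap, yet it was not called as deposited (-0.11, SE 0.04, limma adjusted p = 0.098), while it was called lower under both scalings (adjusted p = 0.0434 and 0.0277). In GENCODE M21, exons of Psmd8, Psmd11 and Psmd14 overlap no other gene, while 10 of the members overlap another gene, Psma4, Psma5, Psmc3 and Psmd13 on the opposite strand among them.

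The 5 other lid genes were all on the higher side. Psmd6 (Rpn7) was at 136, 145 and 159.8 TPM in knockout, against 121, 125 and 129.8 TPM in Control (log2 fold change 0.23, SE 0.07, limma adjusted p = 0.0406), and Psmd12 (Rpn5) was at 213, 215 and 225 TPM in knockout, against 186, 199 and 191 TPM in Control (0.18, SE 0.05, adjusted p = 0.0286). Psmd13 (Rpn9) also rose, with means of 125 ± 1.91 TPM in knockout and 112 ± 2.86 TPM in Control (0.17, adjusted p = 0.0288). All 3 calls were lost under both scalings. Leaving out 1 library ended the call of Psmd6 in 5 of 6 fits (all but without knockout replicate 1), that of Psmd13 in 5 (all but without knockout replicate 3) and that of Psmd12 in 4 (without knockout replicate 1 or 2 or Control replicate 1 or 3), with adjusted p up to 0.116, 0.103 and 0.0950. Psmd3 (Rpn3) and Psmd7 (Rpn8, the partner of Rpn11) missed the threshold, at 0.14 and 0.21 (adjusted p = 0.0572 and 0.0535).

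**Figure D3:**
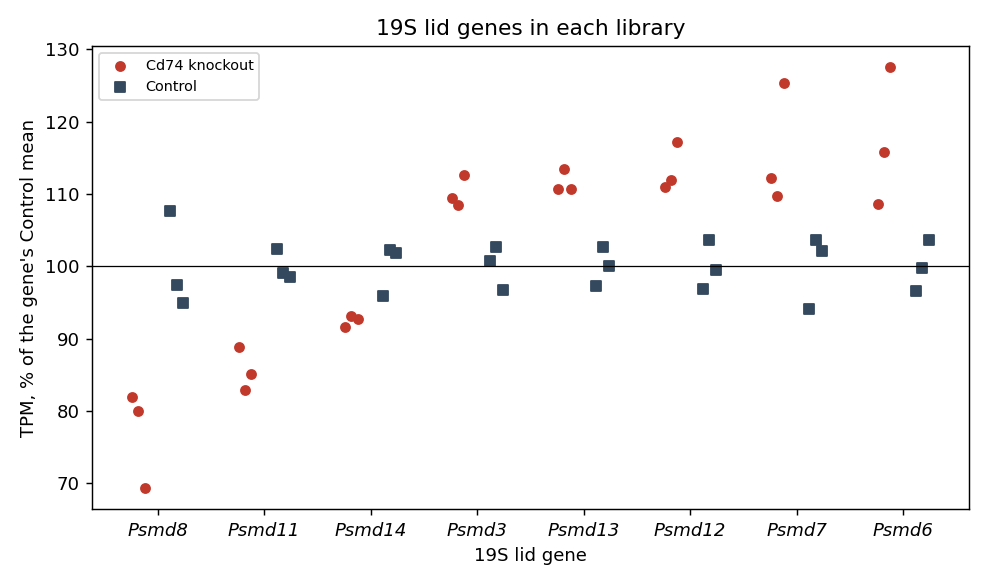
TPM of the 8 lid genes in each library as a percentage of the gene's Control mean (line at 100), with knockout libraries as red circles to the left of Control libraries as dark squares. Knockout values lie below all Control values for Psmd8, Psmd11 and Psmd14 and above all Control values for the other 5 genes.

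Set against each other, the core and the regulatory particle differed little in how they moved. In mean log2(TPM + 1), the 14 core genes were at 8.05, 8.09 and 8.15 in knockout replicates 1 to 3, against 7.99, 8.03 and 8.05 in Control replicates 1 to 3. Knockout replicate 1 and Control replicate 3 were nearly equal. The 17 genes of the 19S particle were at 7.79, 7.80 and 7.85 in knockout, against 7.71, 7.78 and 7.76 in Control. The difference between core and regulatory particle within a library was 0.26, 0.29 and 0.30 in knockout, against 0.28, 0.25 and 0.29 in Control, so the groups overlapped. Its mean was 0.29 ± 0.02 in knockout and 0.27 ± 0.02 in Control (SD, n = 3 each), a shift of 0.02 that was about the size of the SD in each group. Counts of calls were 2 higher and 1 lower of 14 in the core, and 7 higher and 2 lower of 17 in the 19S particle, against 18.5% higher and 10.1% lower of all tested rows. Under median-of-ratios scaling, and likewise under upper-quartile scaling, the core had 1 higher (Psma4) and 1 lower (Psmb6), and the 19S particle had 1 higher (Psmd1) and 3 lower (Psmd8, Psmd11 and Psmd14). Over all tested rows, 14.0% were called higher and 13.2% lower under median-of-ratios scaling, and 13.3% and 14.3% under upper-quartile scaling. The difference between the counts of the core and of the 19S particle was not tested.

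Differences within each particle were larger than the difference between them. The alpha minus beta mean was 0.09, 0.09 and 0.11 on the log2 scale in knockout, against -0.09, 0.06 and 0.05 in Control, with Control replicate 1, the library of lowest depth, well apart from the other libraries. The lid minus base mean was -0.42, -0.44 and -0.48 in knockout, against -0.34, -0.39 and -0.41 in Control. The groups did not overlap in either measure, and neither was tested. For the 5 lid genes other than Psmd8, Psmd11 and Psmd14, a grouping chosen after the values were seen, the mean was 7.31 ± 0.05 in knockout and 7.13 ± 0.04 in Control (SD, n = 3 each).

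**Figure D4:**
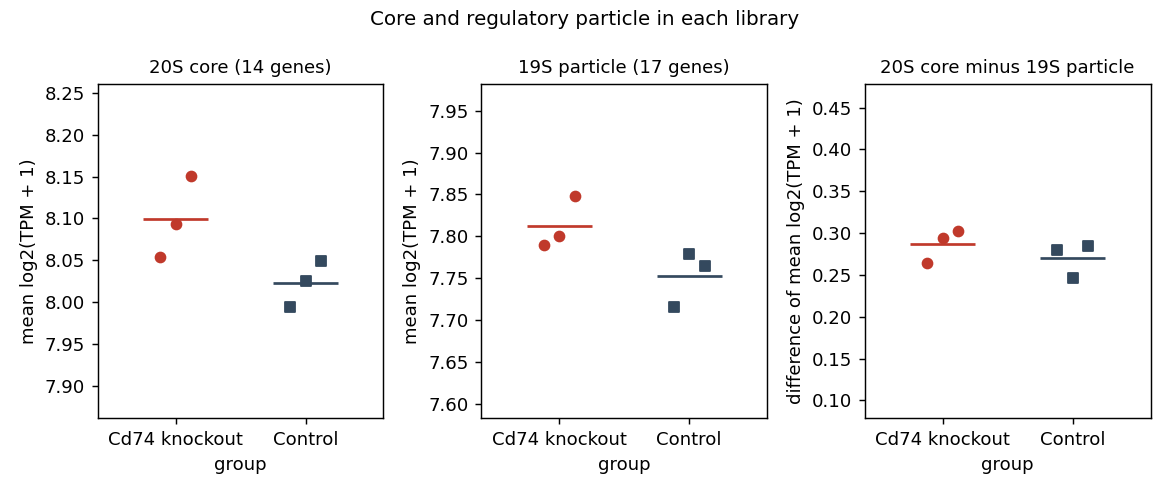
Mean log2(TPM + 1) of the core genes (left) and of the 19S genes (middle), and their difference (right), with 1 point per library, a line at the group mean and knockout left of Control. Vertical axes cover the same span of log2 units but do not start at 0; both means sit slightly higher in knockout, while the difference overlaps between groups.

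Among assembly chaperones of the base, Psmd10, which encodes gankyrin, fell. It was at 136, 131 and 138 TPM in knockout, against 152, 150.4 and 149 TPM in Control (log2 fold change -0.16, SE 0.04, limma adjusted p = 0.0307), with no overlap. The call held under both scalings and was lost in 5 of the 6 fits that left out 1 library, all but that without knockout replicate 3 (adjusted p up to 0.115). Psmd5 was at 38.4 ± 0.196 TPM in knockout and 39.4 ± 0.722 TPM in Control, and Psmd9 at 13.4 ± 1.12 TPM in knockout and 11.4 ± 0.763 TPM in Control (SD, n = 3 each). Neither was called (adjusted p = 0.576 and 0.094). Exons of Psmd9 overlap a noncoding gene on the opposite strand by 1849 bp.

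Chaperones of the core were not called. Psmg1 and Psmg2, which encode partners that start alpha ring assembly, were at 95.3 ± 6.94 and 73.2 ± 1.70 TPM in knockout, against 96.4 ± 4.36 and 72.1 ± 6.56 TPM in Control. Psmg4 was at 76.1 ± 6.76 TPM in knockout and 70.0 ± 7.08 TPM in Control. Psmg3, its partner, was the lowest of the 41 genes in both groups, at 7.25, 7.31 and 8.18 TPM in knockout, against 5.92, 5.88 and 6.52 TPM in Control, with no overlap but no call (log2 fold change 0.27, SE 0.09, limma adjusted p = 0.0591). Exons of Psmg3 overlap those of Gm26938 by 280 bp on the same strand.

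Of the 2 activator genes that fall under the symbol rule, Psme3 rose. It encodes PA28gamma, a nuclear cap that opens the core without ATP, and was at 225, 228 and 248 TPM in knockout, against 186, 204 and 193 TPM in Control (log2 fold change 0.27, SE 0.06, limma adjusted p = 0.0159). The groups did not overlap. Its call held under both scalings and was lost without Control replicate 1 or 3 (adjusted p up to 0.0592). Psme4, the PA200 gene, was at 65.9 ± 1.54 TPM in knockout and 62.6 ± 1.23 TPM in Control (0.07, adjusted p = 0.264), and Psmf1, which encodes PI31, at 20.6 ± 0.938 TPM in knockout and 20.6 ± 1.69 TPM in Control (SD, n = 3 each).

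Which calls held across settings differed by gene. Psmd1 and Psmd8 were called in each of the 15 settings, and Psmd11 in each but the one without knockout replicate 2. Psma4 and Psme3 were called in each but the ones without Control replicate 1 and without Control replicate 3. Under median-of-ratios scaling, 3 of 41 members (7.32%) were called higher and 5 (12.2%) lower, against 14.0% and 13.2% of all tested rows. Under upper-quartile scaling the same genes were called, against 13.3% and 14.3%. With limma-voom on recovered reads, 4 (9.76%) were called higher and 5 (12.2%) lower, against 16.4% and 15.0% of 12543 rows.

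**Figure D5:**
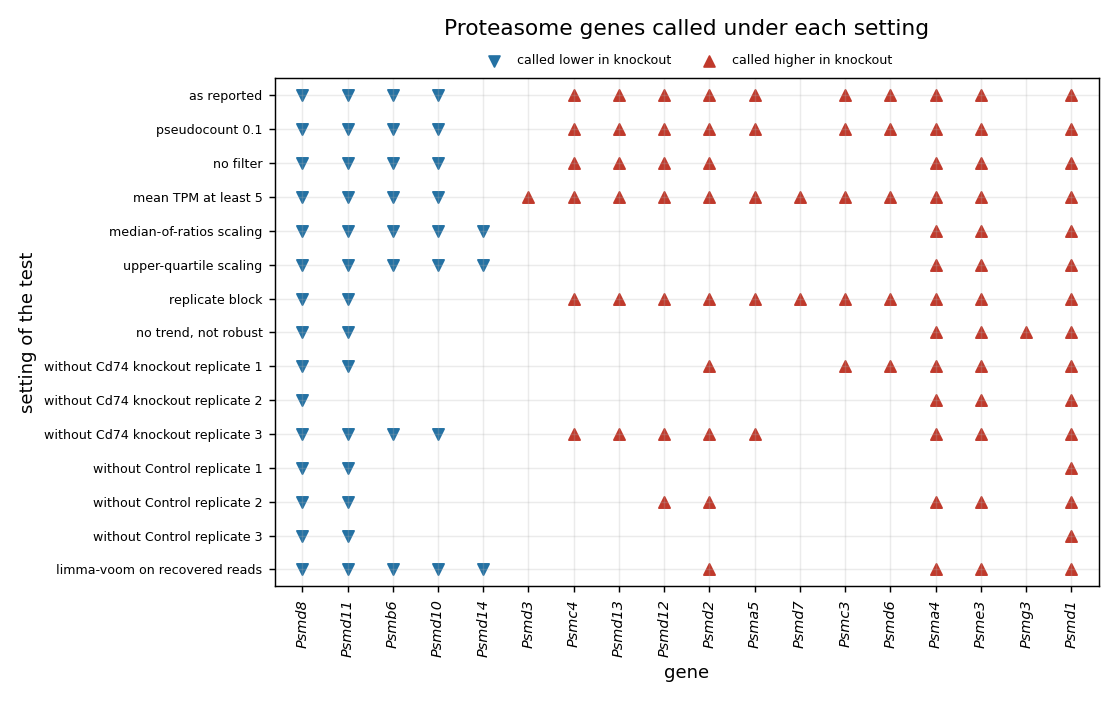
Members called lower (blue, pointing down) or higher (red, pointing up) in knockout under each of 15 settings of the test, with genes ordered by fold change from lowest to highest. Psmd8 and Psmd1 are marked in every line, whereas most other rises are missing under the scalings and in several lines with 1 library left out.

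Proteasome genes outside the symbol rule gave a mixed result. Of 24 genes listed as further subunits, inducible subunits and cofactors, 21 were tested, 5 rose and 3 fell, leaving 13 without a call, and the median log2 fold change was 0.10. The shares of 23.8% higher and 14.3% lower lay near the 18.5% and 10.1% of all tested rows. Among the inducible genes, Psmb8 was called higher, at 63.7 ± 1.10 TPM in knockout and 56.3 ± 2.07 TPM in Control (0.18, SE 0.05, limma adjusted p = 0.0317). That call was lost under both scalings, under limma-voom and with neither trend nor robust settings. It was also lost without knockout replicate 1 or 2 or Control replicate 2 or 3. Psmb9, Psmb10, Psme1 and Psme2 were not called.

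Zfand5, which encodes an activator of the 26S proteasome, fell to 29.3, 28.4 and 26.0 TPM in knockout, against 46.1, 42.5 and 43.5 TPM in Control (log2 fold change -0.64, SE 0.06, limma adjusted p = 0.00216). Akirin2, needed for import of proteasomes into the nucleus, was at 71.4 ± 1.07 TPM in knockout and 93.7 ± 3.23 TPM in Control (-0.39, adjusted p = 0.00307). The size of the Zfand5 difference exceeded that of any member, and that of Akirin2 was close to that of Psmd8; both were called in each setting. Zfand2a, which encodes a relative of Zfand5, also fell, by 0.18 (limma adjusted p = 0.0342). Its call was lost with neither trend nor robust settings and without any 1 library other than knockout replicate 3. Rises were called for the shuttle gene Ubqln4 (0.30, adjusted p = 0.00856), for the proteasome-bound deubiquitinase genes Usp14 (0.33, adjusted p = 0.0248) and Uchl5 (0.24, adjusted p = 0.0331), and for the proteasome-bound ubiquitin ligase gene Ube3c (0.21, adjusted p = 0.027). Uchl5 lost its call in all 6 fits that left out 1 library, Usp14 without knockout replicate 2 or 3 or Control replicate 3, and Ube3c without knockout replicate 1 or 2 or Control replicate 1 or 3. Uchl5 and Ube3c also lost theirs under both scalings, and Uchl5 with neither trend nor robust settings.

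In the NRF1 route, 5 of 15 genes fell and 1 rose, leaving 9 without a call, and the median was -0.08. That is 33.3% lower and 6.67% higher, against 10.1% and 18.5% of all tested rows. Nfe2l1 was at 255, 248 and 216 TPM in knockout, against 341, 329 and 315 TPM in Control (log2 fold change -0.45, SE 0.07, limma adjusted p = 0.00601). Groups were well apart. Falls were also called for Sel1l (-0.50), Derl1 (-0.21) and Syvn1 (-0.20), genes of the machinery that pulls proteins such as NRF1 out of the endoplasmic reticulum membrane, and for Maff (-0.37), a small partner of NRF1 on DNA. Other listed genes of that machinery, Vcp (0.26, limma adjusted p = 0.0736), Nploc4 (0.05) and Ufd1 (-0.13), were not called. All knockout values of Vcp lay above all Control values. The other small partners listed, Mafg (-0.08) and Mafk (-0.02), were not called either. Keap1, which holds the related factor NRF2 for degradation, rose (0.33, adjusted p = 0.00881). Syvn1 lost its call (limma adjusted p = 0.0488) with no filter, with a replicate block and with neither trend nor robust settings. The call was also lost without any 1 library other than knockout replicate 3. Ddi2 and Ngly1, whose products activate NRF1, were not called, with Ddi2 at -0.07 and Ngly1 at -0.24.

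Among 11 genes of ubiquitin and its activation, 3 rose and 1 fell, leaving 7 without a call, and the median was 0.06. The shares were 27.3% higher and 9.09% lower in a list this short, against 18.5% and 10.1% of all tested rows. The gene that fell was Ubb, which encodes polyubiquitin and was at 1112, 1113 and 1011 TPM in knockout, against 1426, 1412 and 1407 TPM in Control (log2 fold change -0.39, SE 0.05, limma adjusted p = 0.00406). Ube2n, which encodes an enzyme of K63 chain formation, rose (0.23, adjusted p = 0.0204), as did Usp5 (0.18, adjusted p = 0.0424) and the activating enzyme gene Uba1 (0.15, adjusted p = 0.0335). The call of Ube2n was lost without Control replicate 1 or 3, while Usp5 and Uba1 lost theirs under both scalings and in 5 of the 6 fits that left out 1 library, all but that without knockout replicate 2 for Usp5 and that without knockout replicate 3 for Uba1. Usp5 and Uba1 also lost their calls under limma-voom, with a replicate block and with neither trend nor robust settings, and Usp5 with no filter.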

How the data were processed

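The authors deposited 1 table of 17217 rows with a TPM value for 3 Cd74 knockout and 3 Control libraries, and all its value columns were mapped to a library. The TPM unit was read from the deposited values, since the header names none: columns summed to 991721 to 998572. Per the submitters' processing notes, the build GRCm39 and the tool DESeq2 appear, in a role not given. Aligner, counter and strand setting are not given in the sources used here.

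Rows with a mean TPM of at least 1 (13034) were tested on log2(TPM + 1) with limma 3.58.1 in R 4.3.3 (eBayes with trend and robust), in a two-sided test at 0.05, with p-values adjusted by Benjamini-Hochberg across these rows. The log2(TPM + 1) scale understates changes of low genes. Whole reads were recovered with GENCODE M21 exon lengths, for 16476 rows, of the 16789 that had a unique length, within 0.02 read. The planned test is for TPM, and limma-voom on these reads was added after the data were seen. The limma test and the recovery of reads were tested on simulated data. Alternatives were a pseudocount of 0.1, other filters, median-of-ratios and upper-quartile scaling, a replicate block, other eBayes settings and leaving out each library.

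The members and lists were chosen with earlier results of these data known, so no test of a list as a whole and no p over the members alone is given. The rule for named genes was every called member up to 8 rises and 8 falls by size, Psmb5, Psmb6, Psmb7 and Psmd14 in any case, and up to 6 called genes per further list. Psmc4, Psmd13, Psmb8, Zfand2a and the members that were not called are given in addition. One gene of the ubiquitin list is not reported here.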

Additional observations from a re-analysis of the deposited data

How the results depend on the processing

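As reported, limma called 10 members higher and 4 lower. The number called higher was 3 under median-of-ratios scaling, 3 under upper-quartile scaling, 4 with neither trend nor robust settings and 4 with limma-voom on recovered reads, an alternative chosen after the data were seen. The number called lower was 2 with the replicate block and 2 with neither trend nor robust settings, in both without Psmb6 and Psmd10. The cause was not tested. Leaving out 1 library gave 1 to 8 members called higher and 1 to 4 lower, and 1313 to 2096 tested rows called higher and 669 to 1219 lower, with fewer samples in each fit. Same-numbered libraries deviated with correlations of 0.13, -0.08 and 0.03, and differently numbered ones with -0.17 to 0.17. Each group was centred on only 3 libraries, so these values cannot settle whether the numbers pair the libraries. The replicate block gave 11 members higher and 2 lower, and 2331 and 1380 of all tested rows. The shift in core minus regulatory particle stayed between 0.00 and 0.03. Of 238 values for 17 named members under 14 alternatives, 154 kept direction and side of the threshold, 81 lost the call, 3 gained it and 0 changed sign. The 154 include values of Psmb5, Psmb7 and Psmd14, which were not called as reported and so had no call to lose. With 3 libraries a group, most of the member calls were lost in at least 1 fit that left out a library. The part of the smaller number of samples in these losses was not tested.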
